A study of Mus musculus with 33 samples.

Results

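The genes described here are those for the EGF receptor (Egfr) and 5 of its ligands, namely epiregulin (Ereg), amphiregulin (Areg), heparin-binding EGF-like growth factor (Hbegf), transforming growth factor alpha (Tgfa) and epigen (Epgn). They were picked by symbol, by a rule that used no measured value, although earlier results of these data were known. All 6 were found among the 12348 genes of the mRNA table, and 2 of them, Egfr and Hbegf, were also listed in the table of poly(A) site use. The cells were cultured mouse esophageal basal cells with floxed Nudt21 alleles and a CreER at the Rosa26 locus. Nudt21 encodes CFIm25, a subunit of the cleavage factor Im, which helps to set where transcripts are cut and polyadenylated. Hypomorph cells had 0.05 µM 4-hydroxytamoxifen together with 50 ng/ml doxycycline for 4 or 6 days, KO cells had 0.05 µM 4-hydroxytamoxifen alone for 2, 4 or 6 days, and control cells had ethanol for 4 days and are called day 0. Every group was grown in an airway epithelial medium (SAGM) with inhibitors of ROCK, GSK3, the TGF-beta receptor and the BMP receptor (Y-27632, CHIR99021, A83-01 and DMH-1). The signals these agents act on were thus changed in the control cells too. Doxycycline was given to the hypomorph cells and to no other group, so its effect and that of the hypomorph state cannot be told apart. No group had 4-hydroxytamoxifen with Nudt21 left intact, and the same control served for every treated day. In comparisons with day 0, effects of 4-hydroxytamoxifen, active CreER, time in culture and loss of Nudt21 therefore cannot be told apart. Each of the 6 groups had 3 mRNA libraries, and since nothing in the labels ties them to separate cultures or animals, a p-value covers no more than the library-to-library spread, which may be technical.

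The EGF receptor is a receptor tyrosine kinase of the ErbB family. Its ligands are made as membrane-anchored precursors that proteases such as ADAM17 release from the cell surface, and a bound receptor signals through adaptors to RAS and the MAP kinases, whose output also switches on feedback inhibitors and several of the ligand genes themselves. In stratified epithelia such as esophagus and skin, basal keratinocytes carry the receptor and supply many of their own ligands, and the pathway is known for driving their proliferation and migration.

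On the GRCm38 assembly Egfr lies on chromosome 11 (16752203 to 16913907) and Tgfa on chromosome 6 (86195038 to 86275744). Epgn (91027517 to 91035212), Ereg (91074617 to 91093649) and Areg (91139599 to 91148432) follow each other on chromosome 5, with gaps of 39.4 kb between Epgn and Ereg and 45.9 kb between Ereg and Areg, and the RefSeq table places 0 protein-coding genes between them. The 250 bases before the annotated start of Areg and Epgn are shown because these genes stand at the ends of that cluster and their mRNA levels moved in opposite directions at day 6 of the hypomorph state. The sequences are from RefSeq, on the plus strand of GRCm38.p6, and capitals mark matches to the motifs searched.
Areg, chr5:91139349-91139598: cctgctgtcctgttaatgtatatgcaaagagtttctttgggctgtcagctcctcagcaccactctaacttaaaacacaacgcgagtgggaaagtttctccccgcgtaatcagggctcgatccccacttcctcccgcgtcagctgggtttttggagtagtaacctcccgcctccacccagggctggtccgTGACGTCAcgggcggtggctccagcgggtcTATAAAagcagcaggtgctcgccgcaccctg
Epgn, chr5:91027267-91027516: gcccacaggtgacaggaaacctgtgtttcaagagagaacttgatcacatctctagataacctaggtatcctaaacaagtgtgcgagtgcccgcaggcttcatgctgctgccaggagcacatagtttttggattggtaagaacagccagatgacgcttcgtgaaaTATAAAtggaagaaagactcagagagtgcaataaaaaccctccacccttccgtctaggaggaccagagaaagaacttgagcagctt
The motifs searched on both strands were the AP-1 motif TGANTCA, the cyclic AMP response element TGACGTCA and the TATA box TATAAA, and no match of one overlapped a match of another. The Areg window held TGACGTCA 61 to 54 bases before the start and TATAAA 31 to 26 bases before it. The Epgn window held TATAAA 86 to 81 bases before the start and neither of the others. Of 32851 windows of the same length, 6.75% held TGANTCA, 1.55% TGACGTCA and 12.4% TATAAA. The Egfr and Tgfa windows held none of the 3 motifs, and Ereg and Hbegf were not matched in the promoter table. These are matches of letters, and binding was not measured.

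Levels are given as CPM (reads of a gene over a fixed total of reads) after the authors' own scaling of each library, called scaled CPM. The libraries held 16.3 to 91.4 M reads on listed genes, and all KO day 2 libraries were above 50 M where all day 0 libraries were below 20 M. Nudt21 itself lay at 3.85 to 6.25 scaled CPM at day 4 and 0.999 to 3.94 at day 6 of the hypomorph state, at 2.77 to 3.21, 2.44 to 3.95 and 1.34 to 2.01 in KO cells at days 2, 4 and 6, and at 12.2 to 14.2 at day 0, so every treated library was below every day 0 library, while the hypomorph and KO ranges overlapped at both shared days. Basal cell markers were listed for 10 of 10 genes, with a summed level of 30810 to 37651 scaled CPM in the 18 libraries, led by Krt5. Of the 6 fibroblast markers only Col3a1 was listed (0 to 2.29 scaled CPM), and of the 4 endothelial markers only Tek (0.0547 to 2.80). The leukocyte marker Ptprc reached 15.9 scaled CPM at most and was at 0 in the lowest library, while Cd68, a lysosomal protein gene on the leukocyte list, ranged over 62.9 to 510 (sum of the 4 listed of 6 leukocyte markers 475 to 515 at hypomorph day 6, 484 to 501 at KO day 6 and 82 to 103 at day 0). The liver gene Alb, of 4 listed of 6 liver markers, ranged over 5.61 to 762 scaled CPM between libraries, and some results are also given without the libraries above 100. Every library above 100 was a day 0 or KO library, while the hypomorph libraries lay at 11.6 to 40.6. High Alb was thus not spread evenly over the states, and its part in the differences between them was not tested.

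At day 6 the 6 genes had moved apart from each other, and differently in hypomorph and KO cells. In hypomorph cells Epgn rose 4.37-fold and Egfr 1.69-fold over day 0, Tgfa, Ereg and Areg fell, and Hbegf did not pass the test. In KO cells Ereg fell 10.3-fold, Areg 6.54-fold, and Tgfa 1.99-fold, Hbegf fell to 32.7% of its day 0 mean, while Egfr rose 1.37-fold and Epgn 1.22-fold. By limma with Benjamini-Hochberg (BH) adjusted p under 0.05, 5 of the 6 genes were called in hypomorph cells and 6 of 6 in KO cells at day 6, beside 67.2% and 71.1% of all 12344 genes tested, so most genes were called at day 6 in either state. Set against KO cells at day 6, hypomorph cells were higher in 5 of the 6 genes (64.7% of all genes were called in either direction and 37.7% as higher). In these bulk libraries, a smaller share of cells of one kind and less RNA per cell cannot be told apart. The summed suprabasal (differentiating) squamous markers, 10 of 12 listed and led by Krt13, were at 1369 to 1575 scaled CPM in the hypomorph day 6 libraries, 4906 to 6687 in the KO day 6 libraries and 854 to 2958 at day 0. Of the 10, 1 was higher and 3 were lower in hypomorph cells at day 6 against day 0 (median log2 change -0.41), and 7 were higher and 0 lower in KO cells (median 1.15), beside 35.9% of all genes higher in hypomorph cells and 33.6% in KO cells. Of the 10 basal markers, 3 were higher and 7 lower in hypomorph than in KO cells at day 6, beside 37.7% and 27% of all genes. Against day 0, 4 were higher and 2 lower in hypomorph cells, and 5 were higher and 2 lower in KO cells. Of all genes, 31.3% were lower in hypomorph cells and 37.5% in KO cells. The part of these marker differences in the results on the ligands was not tested.

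**Figure D1:**
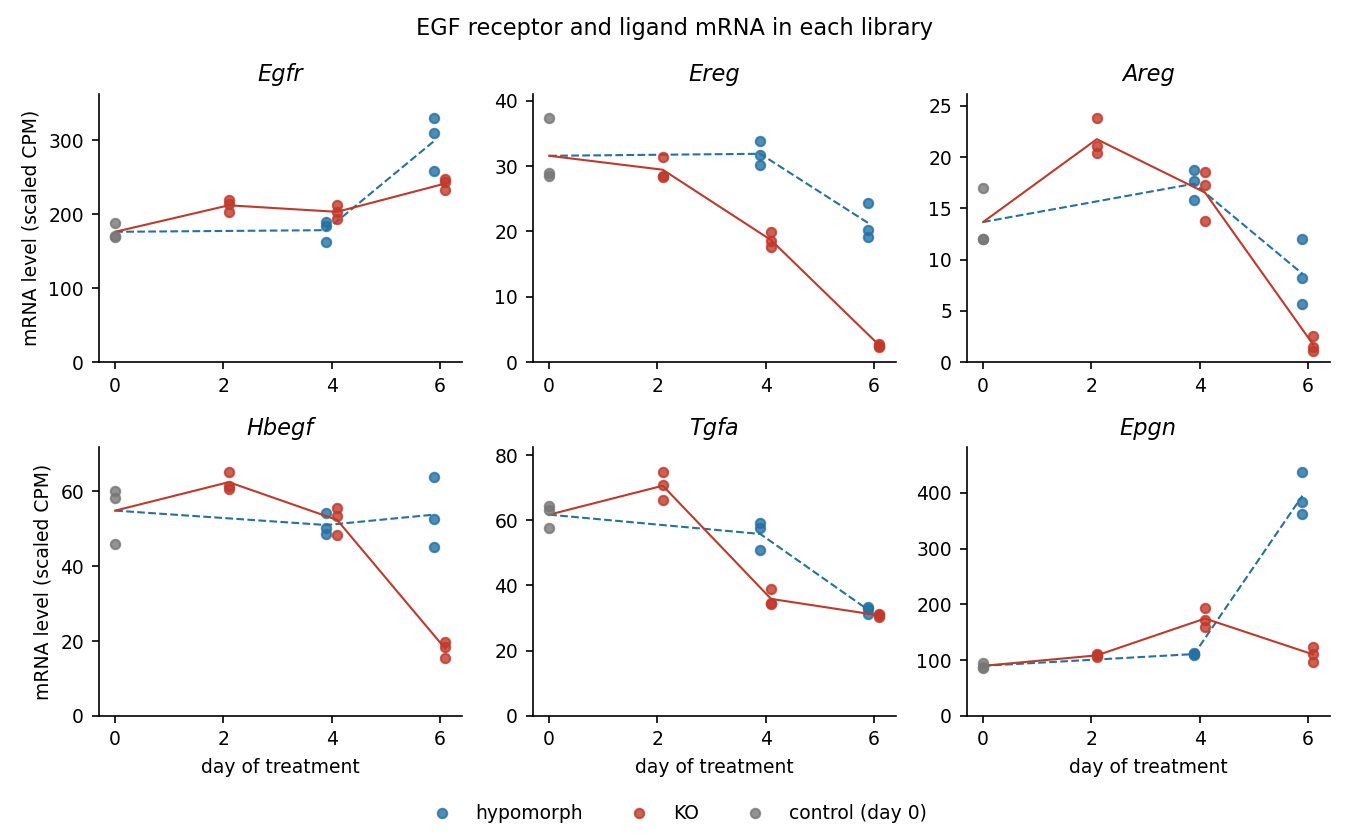
Level of each gene in scaled CPM (linear axis from 0, scale set per gene) against the day of treatment, with 1 point per library and lines through the group means from day 0. Hypomorph is blue with dashed lines, KO red with solid lines and the control grey. Ereg, Areg and Hbegf are lowest in the 3 KO day 6 libraries, and Epgn is highest in the 3 hypomorph day 6 libraries, at 362 to 438 scaled CPM.

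Fewer of the 6 genes had moved at the earlier days. At day 4 of the hypomorph state 1 of 6 was called against day 0 (31.7% of all genes), at day 4 of KO 4 of 6 (46%), with Egfr and Epgn higher and Ereg and Tgfa lower, and at day 2 of KO 3 of 6 (19%), all higher (11.7%). Hypomorph against KO at day 4 gave 3 calls (24.5% of all genes), with Ereg and Tgfa higher and Epgn lower in hypomorph cells. Within KO cells 3 of 6 were called between days 2 and 4 (31.7%) and 6 of 6 between days 4 and 6 (59.7%), with 5 of them lower (33.1%). Of those 6, the call of Tgfa (limma adjusted p = 0.0343) was lost in 9 of 17 alternatives, among them edgeR (adjusted p = 0.0834), DESeq2 (0.105) and the fit without the libraries with high Alb (0.0949), and the call of Egfr was lost in that last fit (0.209). Within hypomorph cells 5 of 6 were called between days 4 and 6 (61.9%). The change between days 4 and 6 itself differed between hypomorph and KO cells for 6 of the 6 genes by the interaction term (45.7% of all genes). All these comparisons share libraries with others, so the counts are not independent of each other. Over all genes, rescaling gave 984 higher and 1373 lower at KO day 2, where the authors' scaling gave 1442 and 900. The 3 calls at KO day 2 were not firm: edgeR on the recovered reads made 1, and rescaling all libraries to an equal total, a term for deep libraries or leaving out the libraries with high Alb made 0.

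Egfr, the receptor, was at 169.7, 171 and 188 scaled CPM in the day 0 libraries, at 162, 184 and 189 at hypomorph day 4 and at 258, 329.8 and 309 at hypomorph day 6. In KO cells it was at 203, 214 and 219 at day 2, 213, 203 and 193 at day 4 and 247, 233 and 244 at day 6. The hypomorph day 6 libraries were above all others, the KO day 6 libraries came next, KO days 2 and 4 overlapped, and hypomorph day 4 overlapped with day 0, which was lowest. Egfr rose by a log2 change of 0.76 ± 0.08 (SE) in hypomorph cells at day 6 (limma adjusted p = 3.07e-09), and by 0.45 ± 0.08 in KO cells at day 6 (limma adjusted p = 1.29e-05). The KO rises at days 2 and 4 were smaller, with log2 changes of 0.27 (limma adjusted p = 0.0202) and 0.21 (limma adjusted p = 0.038). The day 4 call was lost in 6 of 17 alternatives, which were a term for deep libraries (log2 change 0.16, adjusted p = 0.142), the fit without the libraries with high Alb (adjusted p = 0.283) and the fits without the first or second library of day 0 or of KO day 4. Hypomorph against KO at day 6 gave 0.30 ± 0.08 (limma adjusted p = 0.00184). That call was lost, in the same direction, when all libraries were rescaled to an equal total (log2 change 0.09, adjusted p = 0.285) or when the libraries with high Alb were left out (log2 change 0.29, adjusted p = 0.0713).

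Ereg, which encodes a ligand that binds both EGFR and ERBB4, was at 28.9, 28.4 and 37.4 scaled CPM at day 0, at 31.7, 33.8 and 30.1 at hypomorph day 4 and at 24.4, 19.1 and 20.3 at hypomorph day 6. In KO cells the values were 31.4, 28.4 and 28.5 at day 2, 19.9, 18.6 and 17.6 at day 4 and 2.40, 2.52 and 2.86 at day 6. The 3 KO day 6 libraries, with 45 to 154 recovered reads, were far below all others, at a mean of 8.21% of the day 0 level. Hypomorph day 4, day 0 and KO day 2 overlapped with each other at the top, and hypomorph day 6 overlapped with KO day 4. In KO cells Ereg fell by 0.73 ± 0.12 (SE) on the log2 scale at day 4 (limma adjusted p = 1.92e-05) and fell by 3.37 ± 0.12 at day 6 (limma adjusted p = 4.56e-19). In hypomorph cells Ereg fell at day 6 by 0.56 ± 0.12 (limma adjusted p = 0.000266). Hypomorph cells were higher than KO cells by 0.76 ± 0.12 at day 4 (limma adjusted p = 4.76e-05) and by 2.81 ± 0.12 at day 6 (limma adjusted p = 9.49e-17). Since these estimates are on log2(scaled CPM + 0.5), they understate the change of a gene this low. The authors' deposited table gives -3.58 for Ereg and -3.01 for Areg as log2 changes at KO day 6.

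Areg, a ligand of EGFR that keratinocytes make for themselves, had a different time course. It was at 12.0, 12.0 and 17.0 scaled CPM at day 0, at 15.8, 18.8 and 17.7 at hypomorph day 4 and at 12.0, 5.68 and 8.22 at hypomorph day 6. In KO cells it was at 20.4, 23.8 and 21.0 at day 2, at 18.6, 17.3 and 13.7 at day 4 and at 2.55, 1.12 and 1.48 at day 6, from 20 to 80 recovered reads. The KO day 2 libraries were the highest, with no overlap with the next group, hypomorph day 4, which overlapped with KO day 4, and KO day 4 with day 0. The log2 change was 0.67 ± 0.23 (SE) at KO day 2 (limma adjusted p = 0.0432), 0.27 ± 0.23 at KO day 4 (limma adjusted p = 0.344) and -2.71 ± 0.23 at KO day 6 (limma adjusted p = 4.86e-10). Hypomorph cells at day 6 fell by 0.68 ± 0.23 against day 0 (limma adjusted p = 0.012), a call lost without the libraries with high Alb, without the third control library or without the second hypomorph day 6 library (highest adjusted p = 0.104). Against KO cells at day 6 they were higher by 2.03 ± 0.23 (limma adjusted p = 8.33e-08).

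Hbegf, whose product binds EGFR and ERBB4 and also heparan sulfate, passed the test against day 0 at KO day 6 and in no other group. Its levels were 46.0, 58.3 and 60.2 scaled CPM at day 0, 48.5, 50.3 and 54.2 at hypomorph day 4 and 63.8, 45.1 and 52.5 at hypomorph day 6. In KO cells they were 65.3, 61.5 and 60.6 at day 2, 48.3, 55.5 and 53.4 at day 4 and 18.4, 15.6 and 19.8 at day 6. The 3 KO day 6 libraries were the lowest of the 18, KO day 2 was the highest group without passing the test, and the ranges of day 0, hypomorph day 6, KO day 4 and hypomorph day 4 overlapped from neighbour to neighbour. Against day 0, Hbegf at KO day 6 fell by 1.58 ± 0.11 (SE) on the log2 scale (limma adjusted p = 9.49e-13), and the log2 change at hypomorph day 6 was -0.03 ± 0.11 (limma adjusted p = 0.811). Hypomorph cells were higher than KO cells at day 6 by 1.55 ± 0.11 (limma adjusted p = 4.23e-12).

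Tgfa, which encodes a ligand that binds EGFR with high affinity, was at 57.7, 63.2 and 64.3 scaled CPM at day 0, at 50.8, 57.5 and 59.1 at hypomorph day 4 and at 31.4, 33.3 and 32.7 at hypomorph day 6. In KO cells it was at 70.7, 66.1 and 75.0 at day 2, 34.3, 38.8 and 34.5 at day 4 and 31.1, 30.9 and 30.4 at day 6. It thus had fallen by day 4 in KO cells and by day 6 in hypomorph cells, and the groups at day 6 were next to each other at the bottom of the order. In hypomorph cells at day 6 Tgfa fell by 0.92 ± 0.09 (SE) on the log2 scale (limma adjusted p = 2.88e-10). In KO cells it fell by 0.77 ± 0.09 at day 4 (limma adjusted p = 2.77e-08) and fell by 0.99 ± 0.09 at day 6 (limma adjusted p = 4.5e-11). Hypomorph cells were higher than KO cells by 0.63 ± 0.09 at day 4 (limma adjusted p = 4.5e-06), and at day 6 the difference was 0.07 ± 0.09 (limma adjusted p = 0.463), which turned negative by edgeR, by DESeq2 and after rescaling to an equal total.

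Epgn, which encodes a ligand of low affinity for EGFR, was the highest of the 5 ligands per kb of transcript and the one that rose most. Its levels were 86.6, 87.9 and 94.5 scaled CPM at day 0, 112.5, 111 and 109 at hypomorph day 4 and 438, 362 and 384 at hypomorph day 6. In KO cells they were 109, 106 and 110.2 at day 2, 193, 172 and 159 at day 4 and 110.2, 97.1 and 123 at day 6. The hypomorph day 6 libraries stood above all others and the KO day 4 libraries next, while hypomorph day 4, KO day 6 and KO day 2 overlapped and day 0 was lowest. The log2 rise in hypomorph cells was 0.30 ± 0.09 (SE) at day 4 (limma adjusted p = 0.007) and 2.13 ± 0.09 at day 6 (limma adjusted p = 4.05e-18). KO cells rose by 0.27 ± 0.09 at day 2 (limma adjusted p = 0.0238), 0.95 ± 0.09 at day 4 (limma adjusted p = 4.39e-10) and 0.29 ± 0.09 at day 6 (limma adjusted p = 0.00359), and the step between KO days 4 and 6 was -0.66 ± 0.09. Hypomorph cells were lower than KO cells at day 4, by -0.65 ± 0.09 (limma adjusted p = 2.17e-06), and higher at day 6, by 1.84 ± 0.09 (limma adjusted p = 2.28e-16). The day 4 hypomorph rise missed the threshold without the libraries with high Alb (adjusted p = 0.0541).

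**Figure D2:**
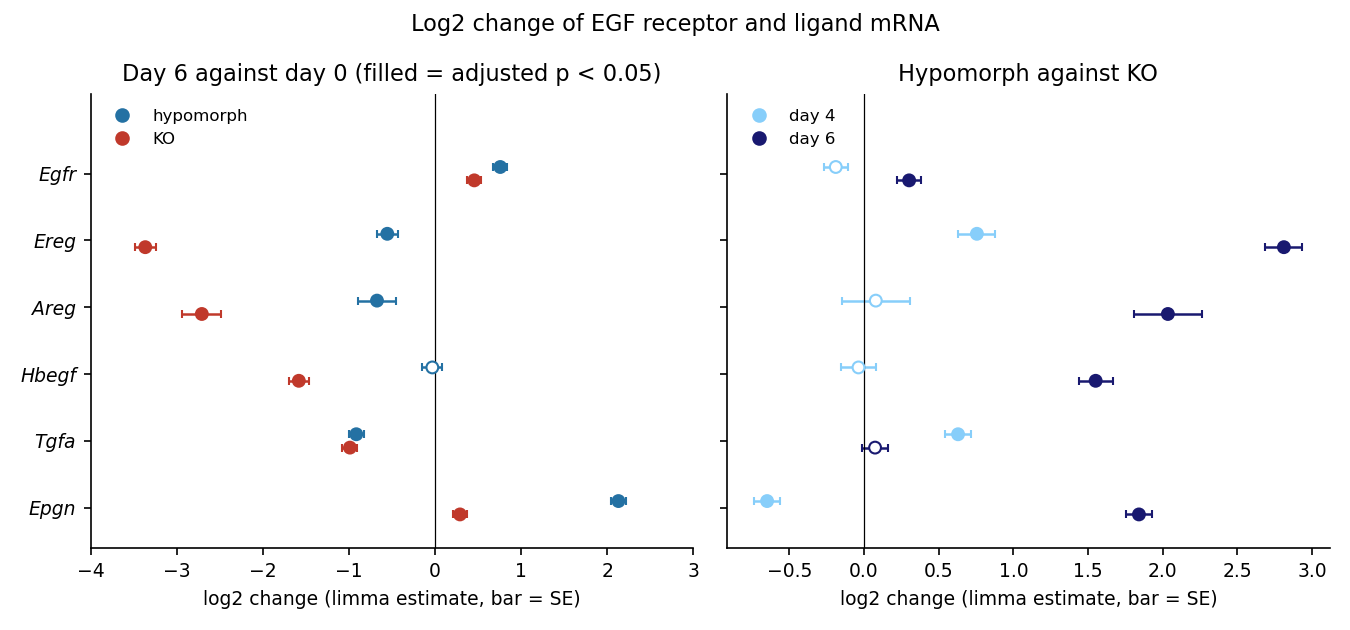
Log2 change of each gene by limma with its SE as a bar. Left, day 6 against day 0 for hypomorph (blue, upper) and KO cells (red, lower); right, hypomorph against KO at day 4 (light, upper) and day 6 (dark, lower), with open points for adjusted p of 0.05 or more. Egfr, Ereg, Areg, Hbegf and Epgn are right of 0 for hypomorph against KO at day 6, at 0.30 to 2.81, and Tgfa is at 0.07, negative under other scalings.

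Compared per kb of the authors' transcript length, at day 0 the level was 52.6 scaled CPM per kb for Epgn, 27.4 for Egfr, 23.1 for Hbegf, 13.6 for Tgfa, 11.3 for Areg and 7.63 for Ereg. Each gene had the same length in every group, so shifts in its poly(A) site were not allowed for. Summed over the 5 ligands it was 121 ± 2.27 (SD, n = 3) at hypomorph day 4 and 274 ± 30.0 at hypomorph day 6, 131 ± 1.07, 151 ± 11.3 and 81.0 ± 8.62 at KO days 2, 4 and 6, and 108 ± 9.18 at day 0. Ligand mRNA was thus most abundant in hypomorph cells at day 6 and least abundant in KO cells at day 6, and the ranges of these 2 groups did not overlap with that of day 0. Without Epgn the sum was 42.0 ± 7.02 at hypomorph day 6, 16.4 ± 1.29 at KO day 6 and 55.6 ± 6.78 at day 0. Epgn made up 84.7% ± 0.906 (SD, n = 3) of the ligand sum at hypomorph day 6, 79.7% ± 1.09 at KO day 6 and 48.8% ± 1.99 at day 0. The share of Epgn was thus above that of day 0 in both states, while the ligand sum was higher than at day 0 in hypomorph cells and lower in KO cells. No test was made on these sums and shares. Ereg made up 1.87%, 0.777% and 7.03% of the sum at hypomorph day 6, KO day 6 and day 0, and Hbegf 8.23%, 9.32% and 21.3%.

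**Figure D3:**
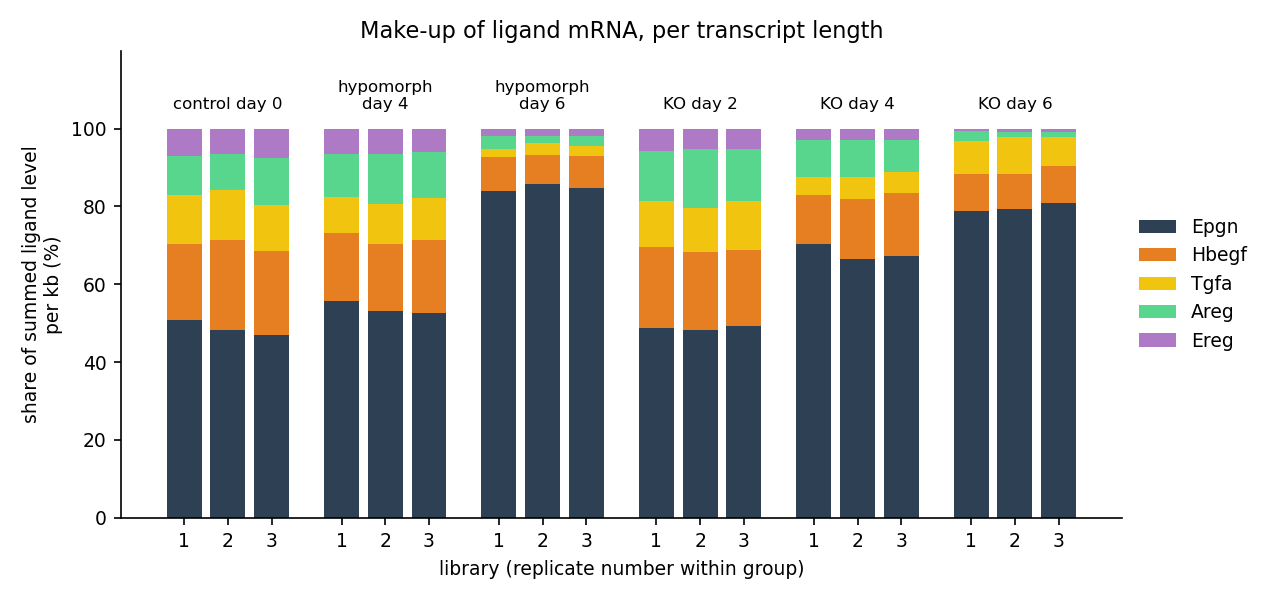
Share of each ligand in the summed ligand level per kb (stacked to 100%), 1 bar per library, with libraries numbered within their group. The share of Epgn is above 78% in all hypomorph and KO day 6 libraries and 47.0% to 50.9% in the day 0 libraries.

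The other genes of the pathway were described from lists of 67 genes, of which 61 were tested. Egf, Btc, Nrg3, Nrg4, Erbb4 and Spry4 were not listed in the mRNA table. Of the 61, 22 were higher and 26 lower in hypomorph cells at day 6 against day 0, and 18 were higher and 30 lower in KO cells at day 6, where 35.9% and 31.3% of all genes were higher and lower in hypomorph cells and 33.6% and 37.5% in KO cells. Hypomorph against KO at day 6 gave 24 higher and 18 lower, beside 37.7% and 27% of all genes. The split of all genes depends on the scaling: 4437 higher and 3861 lower in hypomorph cells against day 0 became 3444 and 5079 after rescaling to an equal total, and 4651 higher and 3337 lower in hypomorph against KO cells became 3292 and 4848. The median log2 change of the 61 was -0.05, -0.13 and 0.10 in these 3 comparisons, next to 0.03, -0.03 and 0.07 over all genes.

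Among the other ligands of the family, Nrg2, a neuregulin that binds ERBB3 and ERBB4, averaged 74.1 ± 8.85 scaled CPM (SD, n = 3) at hypomorph day 6, 8.86 ± 0.748 at KO day 6 and 50.9 ± 2.45 at day 0. It rose in hypomorph cells by a log2 change of 0.53 while in KO cells it fell by 2.46 (limma adjusted p = 6.76e-05 and 1.17e-17). Nrg1, another neuregulin, averaged 362 ± 44.1, 201 ± 15.7 and 265 ± 36.4 in the same groups and was also called in opposite directions, with a log2 change of 0.45 in hypomorph cells and -0.39 in KO cells, the KO call being lost without the libraries with high Alb (log2 change -0.14). Of the partner receptors, Erbb3 averaged 29.5 ± 8.68, 65.8 ± 6.64 and 26.8 ± 7.43 scaled CPM and rose in KO cells (log2 change 1.32 ± 0.20, limma adjusted p = 1.75e-05). Erbb2, which binds no ligand itself and pairs with the other receptors, averaged 36.1 ± 5.79, 54.8 ± 1.56 and 56.7 ± 7.55 and fell in hypomorph cells (log2 change -0.65 ± 0.11, limma adjusted p = 9.69e-06). Egfr was thus joined by Erbb3 among the rises in KO cells and by neither of the 2 other listed ErbB receptors among the rises in hypomorph cells.

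Of 5 genes for ligand shedding and trafficking, 2 were higher and 2 lower in hypomorph cells at day 6 and 0 were called in KO cells by limma (1 at an unadjusted p under 0.05, 1 by edgeR and 2 by DESeq2). Of all genes, limma called 67.2% in hypomorph cells (35.9% higher and 31.3% lower) and 71.1% in KO cells at day 6. Adam17, the main sheddase of these ligands, averaged 99.9 ± 10.9 scaled CPM at hypomorph day 6, 102 ± 5.33 at KO day 6 and 108 ± 2.47 at day 0. Its log2 change was -0.11 in hypomorph cells (limma adjusted p = 0.196, but 0.0305 by edgeR, 0.0356 by DESeq2 and 0.049 with a term for deep libraries) and -0.08 in KO cells (limma adjusted p = 0.347). After rescaling to an equal total the log2 change was -0.30 in hypomorph cells (adjusted p = 0.000176), and -0.24 in hypomorph against KO cells at day 6 (adjusted p = 0.00154). Rhbdf1 and Rhbdf2, inactive rhomboid proteins that bring ADAM17 to the cell surface, went in opposite directions in hypomorph cells, with log2 changes of -0.47 and 0.37, the second lost after rescaling to an equal total.

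Receptor adaptors and ubiquitin ligases were mostly higher at day 6. In hypomorph cells 8 of 12 were higher and 2 lower (median log2 change 0.34), beside 35.9% and 31.3% of all genes. In KO cells 8 were higher and 1 lower (median 0.40), beside 33.6% and 37.5%. Without the libraries with high Alb, fewer of the 12, and fewer of all genes, were called in KO cells. Gab1, a docking protein of the receptor, averaged 34.8 ± 7.21 scaled CPM at hypomorph day 6, 53.9 ± 3.01 at KO day 6 and 20.8 ± 0.835 at day 0. Cblb and Cblc, ubiquitin ligases that mark the receptor for removal, rose in KO cells by log2 changes of 0.85 and 1.02, and in hypomorph cells by 0.33 and 0.56 (Cblb in hypomorph cells not after rescaling or without the libraries with high Alb). Eps8, a receptor substrate that acts on actin, averaged 39.5 ± 7.63, 12.0 ± 0.683 and 8.62 ± 1.05 in the 3 groups and was 1.67 ± 0.15 higher on the log2 scale in hypomorph than in KO cells. Its call in KO cells against day 0 was lost without the libraries with high Alb (log2 change 0.39, adjusted p = 0.151).

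In the RAS-MAPK cascade 3 of 13 genes were higher and 6 lower in hypomorph cells (median log2 change -0.11), beside 35.9% and 31.3% of all genes. In KO cells 1 was higher and 9 lower (median -0.35), beside 33.6% and 37.5%. Without the libraries with high Alb, fewer of the 13, and fewer of all genes, were called in KO cells. The 1 that was higher in KO cells with all libraries was Mapk3, the gene for ERK1, at 85.4 ± 3.66 scaled CPM at hypomorph day 6, 117 ± 3.44 at KO day 6 and 36.5 ± 4.00 at day 0. Its log2 change was 1.22 ± 0.09 (SE) in hypomorph cells (limma adjusted p = 1.73e-12) and 1.68 ± 0.09 in KO cells (limma adjusted p = 1.47e-15). Map2k2, a MAP kinase kinase, was at 166 ± 19.7, 85.0 ± 6.29 and 115 ± 1.55, a rise in hypomorph cells and a fall in KO cells.

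The feedback inhibitors of the receptor and of the cascade were mostly lower at day 6. In hypomorph cells 8 of 13 were lower and 3 higher (median log2 change -0.76), beside 31.3% and 35.9% of all genes. In KO cells 8 of 13 were lower and 4 higher (median -0.68), beside 37.5% and 33.6%. Spred1, a RAS pathway inhibitor, averaged 19.3 ± 1.94 scaled CPM at hypomorph day 6, 18.9 ± 0.414 at KO day 6 and 61.8 ± 9.85 at day 0. Dusp5, a phosphatase of ERK, averaged 12.5 ± 2.72, 7.52 ± 0.624 and 24.2 ± 4.80. Socs5, a cytokine signalling suppressor that also acts on EGFR, fell by 0.59 in hypomorph cells and, in KO cells, fell by 1.42 on the log2 scale. Lrig3, of a family of membrane proteins of which LRIG1 restrains EGFR, rose in hypomorph cells (log2 change 1.06 ± 0.12, limma adjusted p = 5.39e-09).

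Transcripts that EGFR-MAPK signalling is known to induce in other cells did not move as one group. In hypomorph cells 4 of 14 were higher and 7 lower (median log2 change -0.16), beside 35.9% and 31.3% of all genes. In KO cells 4 were higher and 10 lower (median -0.60), beside 33.6% and 37.5%. Hypomorph cells were higher than KO cells in 8 and lower in 3, beside 37.7% and 27% of all genes. Plaur, the urokinase receptor gene, averaged 46.5 ± 3.19 scaled CPM at hypomorph day 6, 3.82 ± 0.914 at KO day 6 and 22.5 ± 3.35 at day 0, and so rose in hypomorph cells and fell in KO cells, as Nrg2 did. Ptgs2, the gene for cyclooxygenase 2, averaged 729 ± 78.6, 227 ± 8.62 and 148 ± 7.36 and rose in both. Etv4, an ETS transcription factor, averaged 12.0 ± 1.70, 7.60 ± 0.339 and 34.1 ± 6.81 and fell in both. Ier3, an immediate early gene, was highest in KO cells, at 106 ± 12.4, 187 ± 9.03 and 62.4 ± 7.33.

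**Figure D4:**
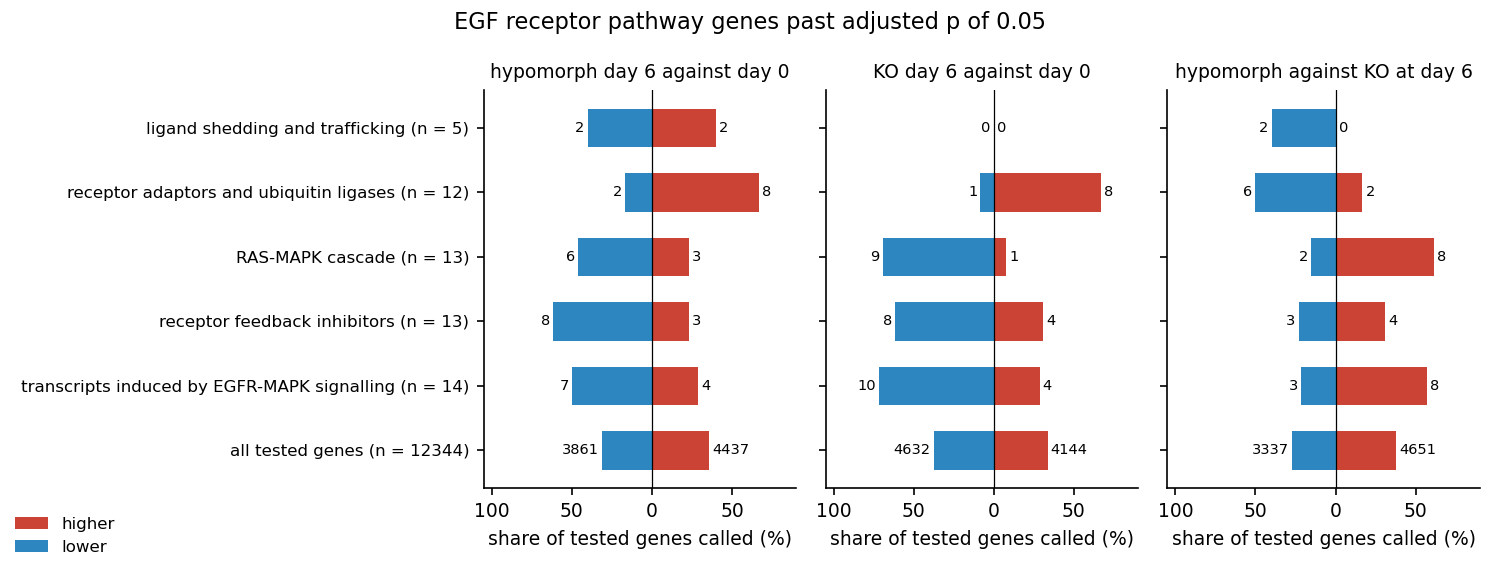
Share of the tested genes of each pathway list with limma adjusted p under 0.05, higher to the right and lower to the left of 0, with the number of genes at each bar. All tested genes are the bottom row; adaptors and ubiquitin ligases have 8 of 12 genes higher in both day 6 comparisons with day 0.

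Poly(A) site use was measured in hypomorph and KO cells at day 4 and in control cells at day 0, with 3 samples per group, by PAS-seq, a method that sequences transcript ends. For each gene and group the authors' deposited table gives a single ratio, proximal over distal site, so the values have no spread and no depth, and no test was made. Egfr had a ratio of 6.74 in KO cells, against 0.526 in control cells, by the authors' deposited table. As a share, the proximal site made up 87.1% of Egfr in KO cells and 34.5% in control cells, a difference of 52.6 percentage points. The authors called Egfr shorter in KO cells, beside 49.4% of the 4324 genes listed, and 908 genes (21.0%) shifted further toward the proximal site. For Hbegf the ratio in the authors' deposited table was 0.537 in KO cells and 0 in control cells, which is a proximal share of 34.9% in KO cells against 0% in control cells, also called shorter, with 1489 genes (34.4%) shifted further. The median shift of all listed genes was 19.8 points.

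Neither gene was called in hypomorph cells by the authors, where 21.8% of listed genes were called shorter. The hypomorph ratios themselves equal the KO ratios within 1e-06 in 3397 of the 4324 genes and are not used for comparisons here. As deposited, the hypomorph ratio of Hbegf was 0.537, the same as its KO ratio. That of Egfr was infinite, further toward the proximal site than its KO ratio of 6.74, although the authors did not call it. Ereg, Areg, Tgfa and Epgn were not listed in the PAS-seq table. In the mRNA libraries at day 4, the time of the treated PAS-seq samples, the log2 change of Egfr in KO cells was 0.21 (limma adjusted p = 0.038). That call was lost in 6 of 17 alternatives. The change of Hbegf was -0.06 (limma adjusted p = 0.709). Of the 26 other pathway genes listed, 20 were called shorter and 0 longer in KO cells (49.4% and 2.2% of all listed genes). Large shifts among them were those of Cblb, with a proximal share of 96.9% in KO cells against 12.5% in control cells, Map2k1 (83.8% against 0%), Sos1, the RAS exchange factor (93.9% against 14.8%), and Cbl (88.3% against 12.5%).

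**Figure D5:**
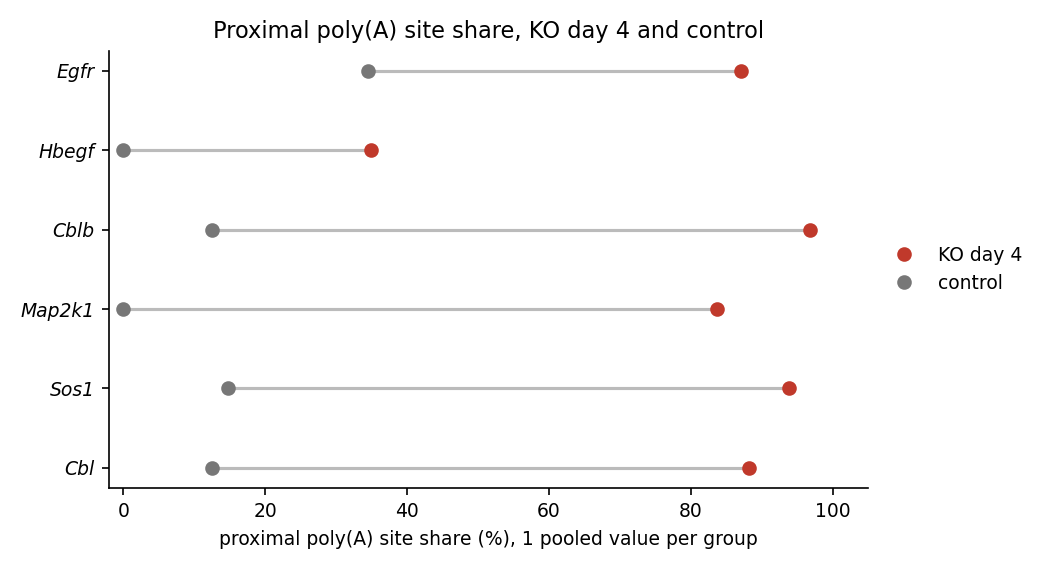
Share of the proximal poly(A) site in percent, 1 value per gene and group as pooled by the authors, for KO day 4 (red) and control (grey). Egfr and Hbegf come first and 4 pathway genes with large shifts follow; the KO value is right of the control value in each, at 34.9% to 96.9%.

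The genes whose pattern over the 18 libraries was most like that of each gene were found by the root-mean-square difference of centred log2(scaled CPM + 0.5), with 0 for an identical pattern. Egfr had the closest neighbours, Kif16b at 0.07, Ubr2 at 0.08 and Arnt at 0.09, beside its own SD of 0.27 over the libraries. Hbegf was nearest to Ranbp1 (0.14), Mrto4 (0.15) and Cmss1 (0.15), with an own SD of 0.61. Tgfa was nearest to Tns3 (0.15), D8Ertd82e (0.15) and Nfib (0.16), with an own SD of 0.47. The neighbours of the other genes were further away. They were Fas, Smad7 and Lonrf3 for Epgn (0.27 to 0.28, own SD 0.72), Hmga2, Gcnt1 and Etv4 for Areg (0.40 to 0.46, own SD 1.16), and Lyar, Thada and Grik3 for Ereg (0.42 each, own SD 1.19). Fas, nearest to Epgn, averaged 46.5 scaled CPM at hypomorph day 6, 14.1 at KO day 6 and 8.62 at day 0.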

How the data were processed

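Poly(A)-selected mRNA of 18 samples (mm10) and PAS-seq of 9 samples (mm9) were processed with STAR and featureCounts, per the submitters' processing notes, which name no versions. The values the authors deposited for mRNA are a normalized signal. The planned unit was CPM, but column totals differ between libraries, so they are treated as CPM scaled by the authors. The authors' deposited log2 changes were used only where named, and their deposited p-values and test score (F) were not. The PAS-seq table deposited by the authors holds a ratio per gene, pooled by group. Small RNA files are not used here.

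Dividing by the smallest step gave whole reads for 100% of values (within 0.1 of a read). The test was limma (3.58.1, two-sided, R 4.3.3) applied to log2(scaled CPM + 0.5) with a trend and robust empirical Bayes, on 12344 genes at 1 CPM or more in at least 3 libraries, all 18 libraries in 1 fit. Adjusted p-values are Benjamini-Hochberg over all genes tested, with a threshold of 0.05, and the fit was tested on simulated data. In the simulation only KO day 6 was changed, in a small share of genes, and no deviations were shared between libraries. It thus cannot tell how the fit behaves with the wide changes and shared deviations of these data. No molecular identifiers were described, so read numbers bear on counting error only. Alternatives were pseudocounts of 2 and 0.1, other filters, edgeR 4.0.16 and DESeq2 1.42.0 on recovered reads, rescaling, other sets of libraries and a replicate block.

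The 6 genes, the pathway and marker lists and the tests were chosen with earlier results of these data known. From each pathway list the text names genes by a rule, the 3 with the smallest adjusted p in KO cells at day 6 and up to 2 in hypomorph against KO, with every listed ligand and ErbB receptor and up to 5 PAS-seq shifts. Results for a few of these genes are not given here by name, but they stay in the counts. For each of the 6 genes, the 3 genes of nearest pattern are named, apart from mitochondrial genes, pseudogenes and those with provisional symbols.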

Additional observations from a re-analysis of the deposited data

Results flagged for a closer look

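For all 6 genes the change between days 4 and 6 differed between hypomorph and KO cells, tested by the interaction term in limma with BH adjusted p. The same term called 45.7% of all genes tested. The difference, hypomorph step minus KO step on the log2 scale, was 2.49 ± 0.12 (SE) for Epgn (adjusted p = 9.28e-15), which rose by 1.82 in hypomorph cells and fell by 0.66 in KO cells. For Ereg it was 2.06 ± 0.17 (adjusted p = 5.28e-10), with a fall in both states, by 0.58 in hypomorph cells and by 2.63 in KO cells. For Areg it was 1.96 ± 0.32 (adjusted p = 4.28e-05), with falls by 1.03 and by 2.98. For Hbegf it was 1.59 ± 0.16 (adjusted p = 1.31e-08), with a step of 0.06 in hypomorph cells, not past the test, and of -1.52 in KO cells. For Egfr it was 0.49 ± 0.11 (adjusted p = 0.000921), with steps of 0.74 in hypomorph cells and 0.25 in KO cells. Tgfa alone differed the other way, by -0.56 ± 0.12 (adjusted p = 0.000542), with a fall by 0.77 in hypomorph cells between these days and a step of -0.21 in KO cells, whose call was lost by edgeR, by DESeq2, after rescaling to an equal total, with the compared groups alone and without the libraries with high Alb. Without the libraries with high Alb, the differences for Egfr and Tgfa missed the threshold (adjusted p = 0.0575 and 0.0921).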

How the results depend on the processing

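Of 1158 alternative values for the 6 genes, 1079 kept their direction and side of the threshold, 49 lost and 4 gained a call, and 26 changed sign, none of them called in the main analysis. The 3 genes called at KO day 2 became 1 by edgeR and 0 after rescaling to an equal total, with the depth term or without the libraries with high Alb (0 to 3 when 1 library was left out). The 1 called at hypomorph day 4 became 0 without the libraries with high Alb, and the 3 called between KO days 2 and 4 became 5 with the compared groups alone. The cause was not tested. Without the libraries with high Alb 1 library is left at day 0, KO day 4 and KO day 6, assumed to vary like the other groups.

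Sign changes without the libraries with high Alb were Ereg at KO day 2 (0.074) and Erbb3 at hypomorph day 6 (-0.14). At hypomorph day 4, Egfr was at -0.0065 by edgeR, -0.0020 by DESeq2 and -0.0070 with the depth term, and Ereg at -0.0079, -0.0027 and -0.0055. In hypomorph against KO at day 6, Tgfa was at -0.012 by edgeR, -0.028 by DESeq2 and -0.14 rescaled, Spred1 at -0.062, -0.076 and -0.18, and Rhbdf2 at -0.068 rescaled. Rescaling also gave Hbegf -0.11 between hypomorph days 4 and 6 and Erbb3 -0.046 at hypomorph day 6, and DESeq2 gave Erbb2 0.018 and Rhbdl2 0.013 at KO day 6. Leaving out 1 library gave ranges of -0.16 to 0.036 for Ereg at KO day 2, -0.18 to 0.013 for Hbegf at KO day 4, -0.027 to 0.083 for Egfr and -0.046 to 0.15 for Ereg at hypomorph day 4, -0.16 to 0.087 for Hbegf at hypomorph day 6, -0.066 to 0.18 for Hbegf between hypomorph days 4 and 6, and -0.095 to 0.0048 for Hbegf and -0.046 to 0.17 for Areg in hypomorph against KO at day 4. Likewise Adam17 was at -0.10 to 0.055 and Spred1 at -0.052 to 0.081 in hypomorph against KO at day 6, Erbb3 at -0.12 to 0.39 at hypomorph day 6, and Erbb2 at -0.13 to 0.055 and Rhbdl2 at -0.16 to 0.13 at KO day 6. Rescaling moved the median of all genes in hypomorph against KO at day 6 to -0.13, against 0.07.

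The replicate block changed no call of the 6 genes (6 called at KO day 6). Same-numbered libraries did not as a rule deviate together: the median correlation of their deviations was -0.004 over 45 pairs (-0.81 to 0.71), and 10 pairs exceeded 0.1. Of the 90 pairs with different numbers, 26 exceeded 0.1, with a range of -0.75 to 0.78. Some libraries of different groups thus shared strong deviations that do not follow the replicate number, and the replicate block does not account for them. Among day 0 and KO libraries, these deviations went mostly with Alb. Pairs both below 100 scaled CPM of Alb had correlations of 0.36 to 0.78. Pairs both above it lay at -0.07 (day 0 library 3 with KO day 6 library 1) to 0.68. Pairs across it lay at -0.81 to 0.01 (day 0 library 2 with KO day 6 library 1). The cause of the shared deviations was not tested. Genes called in all were 2342 at KO day 2 (1071 to 2847 over the alternatives), 5675 at KO day 4 (2803 to 6006), 3908 at hypomorph day 4 (2001 to 4480), 3026 in hypomorph against KO at day 4 (1118 to 3844), 3916 between KO days 2 and 4 (1523 to 4720), 7366 between KO days 4 and 6 (4454 to 7629) and 5636 for the interaction (3481 to 5851). By edgeR on the recovered reads, 8322 genes were called at hypomorph day 6 and 8767 at KO day 6. Of 1272 alternative values for the named pathway genes and Nudt21, 1232 kept direction and side of the threshold. Areg and Ereg at KO day 6 rest on few reads.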
